A study of Danio rerio with 6 samples.

Results

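The transcripts described here are those of 3 genes linked to vessel sprouting, *aplnra*, *angpt2a* and *esm1*, and of a placental growth factor gene that the deposited tables call PGF (1 of 2). They were found by gene name in the authors' 2 tables of differential expression, which gave 4 transcripts, 1 per gene, of 54869 in the count table. Any other transcript of these genes would carry no name and was not analysed here. All 4 are in the Cuffdiff table of 158 transcripts, and *angpt2a* and *esm1* are also in the DESeq table of 359. The paper's methods count a gene as differentially expressed only where both programs called it. *aplnra* and PGF (1 of 2) were listed by Cuffdiff alone. Both tables hold only transcripts that had already passed the authors' thresholds on the comparison of genotypes. A higher or lower level of these transcripts is therefore a description of how large the difference was and how the samples spread, and not independent evidence that the genes responded.

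RNA was sequenced from whole zebrafish at 4 dpf, in 3 samples of homozygous flt1ka601 (flt1-/-) mutants and 3 samples of WT fish of the AB strain. Both genotypes carried Tg(kdrl:eGFP)s843, a green fluorescent reporter of endothelial cells, and the labels name no strain for the mutants. The flt1ka601 allele is 1 mutant line, a frameshift made with CRISPR/Cas in exon 3 of *flt1* that truncates both the soluble and the membrane-bound form of the receptor. The labels state biological replicates with 2 technical replicates each, and the number of fish in a sample is not given in the sources used here.

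Flt1 is a receptor of the Vegf family that binds Vegfa tightly but signals weakly, and its soluble form acts as a decoy that lowers the amount of ligand free to reach the receptor Kdrl. Placental growth factor belongs to the same ligand family, and in mammals it binds Flt1 and not the main signalling receptor. Aplnra is a G protein-coupled receptor for Apelin and for Apela, a peptide that guides cell movement in the zebrafish gastrula. Angiopoietin 2 is a secreted ligand of the Tie2 receptor that in mammals can loosen the hold of Angiopoietin 1 on quiescent vessels, and Esm1, also called endocan, is a proteoglycan that endothelial cells secrete and that marks tip cells in the mouse retina. The mutants form extra sprouts from veins along the neural tube, and the study used the RNA comparison to look at genes linked to sprouting. The paper reported *aplnra*, *angpt2a* and *esm1* as significantly raised in the mutants, by RNA-seq and also by qPCR. It reported *plgf*, the placental growth factor gene, and *lyve1* as significantly raised too. Classical tip-stalk markers, among them *notch1a*, *dll4* and *flt4*, it reported as not altered. The qPCR was not part of the data used here.

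Between 10655504 and 13358468 reads per flt1ka601 sample were counted on transcripts, and between 10792845 and 14936523 per WT sample. These were 30.8% to 32.3% of uniquely placed reads in the mutants and 32.2% to 34.8% in WT. Reads that HTSeq found ambiguous between transcripts, which are in no count, made up 22.4% to 22.7% in the mutants and 20.0% to 23.1% in WT. Reads that HTSeq gave to no transcript, also uncounted, made up 45.0% to 46.8% in the mutants and 43.5% to 45.9% in WT. WT replicate 1 stood apart in composition, with 36.9% of its counts on its 5 most counted transcripts, against 27.0% to 28.8% in the other samples. Levels are given as CPM, counts brought to a common library size with TMM scaling, which also corrects for composition. CPM is not divided by transcript length, so CPM values compare samples for 1 transcript and not genes with each other. In RNA from whole fish, more cells of a type and more RNA per cell cannot be told apart.

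Among the 3 sprouting genes, *esm1* and *angpt2a* were higher in every mutant sample than in any WT sample, by 2.23-fold and 2.68-fold in the edgeR fit. The third, *aplnra*, had a fitted ratio of 2.49, overlapping genotypes and no call. The fewest reads of all 4 and the largest fitted ratio, 3.52, were those of PGF (1 of 2). Of the 4 transcripts, 3 were called higher by edgeR (quasi-likelihood fit, adjusted p below 0.05 over 21029 transcripts), where 5.44% of all tested transcripts were called higher, and 0 were called lower. The same 3 had no overlap between genotypes, with all mutants on the high side, as did 16.8% of the tested transcripts. Nothing is read from these shares, because the tables that supplied the names had been filtered on the same comparison.

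The filter on low counts bears on 2 of them. It asks for at least 3 samples at 0.896 CPM (before TMM scaling), the level of 10 reads in a library of median size. All 6 samples reached this level for *angpt2a* and for *esm1*. For *aplnra* the 3 mutants and 1 WT sample reached it, and for PGF (1 of 2) the 3 mutants and 0 WT samples did. The last pair thus entered the test through the genotype in which they were high, and a transcript with so few reads in both genotypes would not have been tested.

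*esm1* (ENSDART00000084545, gene ENSDARG00000060189), the endothelial proteoglycan, was the most counted of the 4. It had 125, 84 and 86 reads in flt1ka601 replicates 1, 2 and 3, against 51, 39 and 36 in WT replicates 1, 2 and 3. Scaled for library size this was 8.95, 7.56 and 7.49 CPM in the mutants, against 3.92, 3.42 and 3.41 CPM in WT. The samples of each genotype lay close together, and the lowest mutant was 1.91 times the highest WT sample. The mean was 7.998 ± 0.821 CPM in mutants and 3.58 ± 0.295 CPM in WT (SD, n = 3 each). The log2 fold change of mutants over WT was 1.16 with a 95% interval from 0.81 to 1.51 (edgeR adjusted p = 0.0023).

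*angpt2a* (ENSDART00000025463, gene ENSDARG00000014946), the Tie2 ligand, had 58, 59 and 40 reads in the mutants, against 19, 21 and 16 in WT. The levels were 4.15, 5.31 and 3.48 CPM in flt1ka601 replicates 1, 2 and 3, against 1.46, 1.84 and 1.51 CPM in the WT replicates. Again the genotypes did not overlap, and the lowest mutant was 1.89 times the highest WT sample. The coefficient of variation was 21.4% in mutants and 12.8% in WT, where counting alone gives 13.8% and 23.1%. The WT spread was thus below counting error, and a difference in spread between genotypes is not shown. The log2 fold change was 1.42 with a 95% interval from 0.89 to 1.95 (edgeR adjusted p = 0.0058).

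*aplnra* (ENSDART00000074125, gene ENSDARG00000002172), the Apelin receptor, had 21, 27 and 23 reads in the mutants, against 5, 6 and 16 in WT. In CPM this was 1.503, 2.43 and 2.003 in flt1ka601 replicates 1, 2 and 3, against 0.384, 0.526 and 1.51 in the WT replicates. WT replicate 3 therefore stood level with flt1ka601 replicate 1, while WT replicates 1 and 2 were below every mutant, so that the mutant was higher in 8 of the 9 mutant-WT pairs. The mean was 1.98 ± 0.464 CPM in mutants and 0.808 ± 0.615 CPM in WT (SD, n = 3 each), and an exact permutation test on CPM gave a two-sided p of 0.2, where 3 samples against 3 reach 0.1 at best. The log2 fold change of 1.32 had a 95% interval from 0.36 to 2.28, and the adjusted p was 0.081 (edgeR). With each sample left out in turn, *aplnra* was called in 1 of 6 fits, that without WT replicate 3, with a log2 fold change of 2.09 and an adjusted p of 0.0055 (edgeR). This is the sample whose level made the genotypes overlap. Without it, calls over all transcripts also rose, to 1492 higher and 1297 lower from 1145 and 907. In the other 5 fits the log2 fold change was 0.95 to 1.49 with adjusted p-values of 0.12 to 0.24 (edgeR).

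PGF (1 of 2) (ENSDART00000114220, gene ENSDARG00000076767) is a gene of the Vegf ligand family whose gene number in the Cuffdiff table is that of RefSeq's *pgfb* (assembly GRCz12tu). It had 12, 13 and 16 reads in the mutants, against 7, 3 and 1 in WT, or 0.859, 1.17 and 1.39 CPM in flt1ka601 replicates 1, 2 and 3, against 0.538, 0.263 and 0.0946 CPM in the WT replicates. All mutants were above all WT samples, the lowest mutant being 1.60 times the highest WT sample. The exact 95% Poisson interval of a single count, which covers counting error only, ran from 6.2 to 21.0 reads for flt1ka601 replicate 1 and from 2.81 to 14.4 for WT replicate 1, and these 2 intervals overlapped. In WT replicate 3 the single read had an interval from 0.025 to 5.57. Summed over each genotype there were 41 reads in mutants and 11 in WT, and the log2 fold change was 1.81 with a 95% interval from 0.76 to 2.87 (edgeR adjusted p = 0.038). With 1 sample left out the call was lost in 5 of 6 fits, with adjusted p-values of 0.063 to 0.13 (edgeR), and kept only without WT replicate 1, where the log2 fold change was 2.56 with an adjusted p of 0.030. The second copy of the gene carries no name in the files and was not analysed here.

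**Figure D1:**
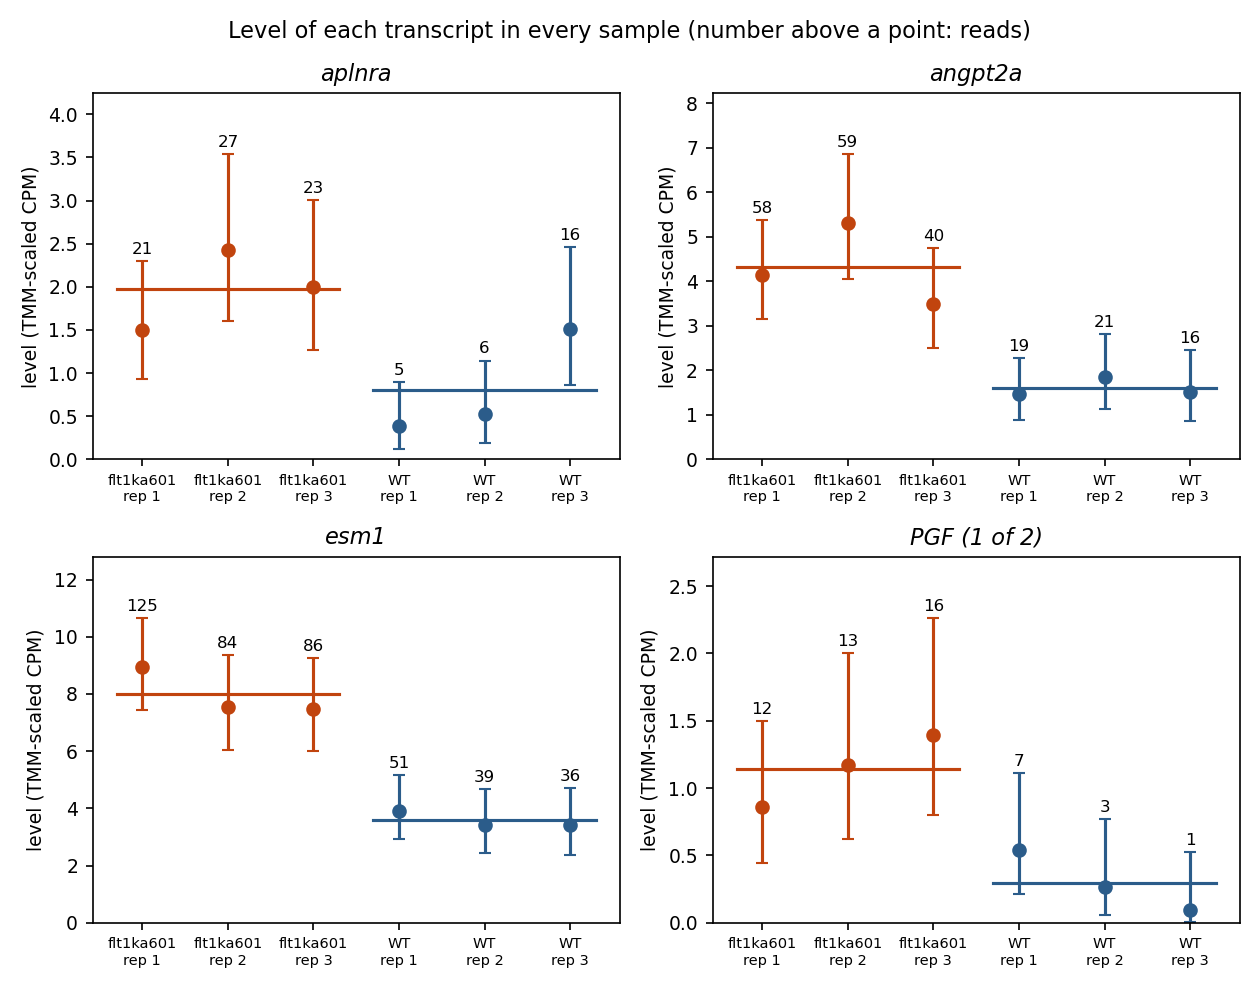
Level of each transcript (vertical axis, TMM-scaled CPM from 0) in the 3 flt1ka601 and 3 WT samples, with the read count above each point, the exact 95% Poisson interval as a bar and the mean of each genotype as a line. The mutants of *esm1* sit between 7.49 and 8.95 CPM, above the WT samples between 3.41 and 3.92 CPM, while WT replicate 3 of *aplnra* is level with the lowest mutant.

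How precisely each difference was measured followed the number of reads. If reads were limited by counting alone, the summed reads would give a standard error of the log2 ratio of 0.15 for *esm1*, 0.22 for *angpt2a*, 0.33 for *aplnra* and 0.49 for PGF (1 of 2). The standard errors of the fit were 0.16, 0.24, 0.43 and 0.48 in the same order of genes. Only for *aplnra* was the fitted error clearly above counting error, and the excess lay in WT: its 3 WT samples had a coefficient of variation of 76.1% where counting alone gives 33.3%, against 23.4% and 20.6% in the mutants. The biological coefficient of variation that edgeR fitted was 25.4% for *aplnra*, beside a median of 14.3% over the 2180 tested transcripts within 25% of its mean reads. For *esm1*, *angpt2a* and PGF (1 of 2) it was 9.15%, 13.4% and 15.9%, beside medians of 10.95%, 12.9% and 14.8% for transcripts of similar read number. Only *aplnra* stood well above its median. edgeR draws each of these values toward those of transcripts of similar level, so closeness to the medians is partly built in. Unfitted coefficients of variation for PGF (1 of 2) were 75.0% in WT and 23.5% in mutants, where counting alone gives 52.2% and 27.1%. For *angpt2a* they were 12.8% and 21.4%, where counting gives 23.1% and 13.8%. For *esm1* they were 8.23% and 10.3%, where counting gives 15.4% and 10.1%.

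Set against all tested transcripts, the median log2 fold change of the 4 was 1.37, and the median of all 21029 was -0.0051. Ordered by log2 fold change from high to low, 52 tested transcripts were above PGF (1 of 2), 130 above *angpt2a*, 165 above *aplnra* and 239 above *esm1*. High places were nearly set in advance, since the 4 were named only after passing the authors' thresholds on the same comparison. *aplnra* and PGF (1 of 2) also passed the filter on low counts through the mutants. Nothing is read from these places. The intervals of the 4 fold changes overlapped, so their order among themselves was not resolved.

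**Figure D2:**
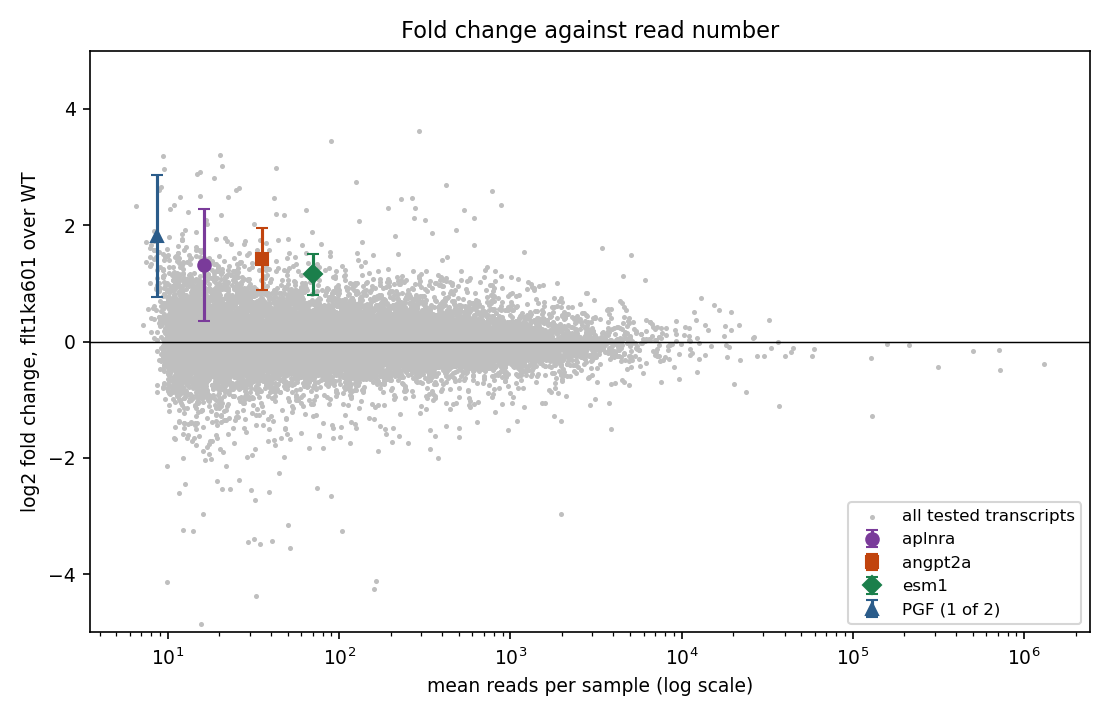
Log2 fold change of flt1ka601 over WT (vertical axis) against mean reads per sample (horizontal axis, log scale) for all tested transcripts in grey and the 4 transcripts in colour with 95% intervals; 15 grey points beyond a log2 of 5 are outside the axis. The intervals narrow from PGF (1 of 2), with a mean of 8.67 reads, to *esm1*, with a mean of 70.2 reads.

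FPKM, which is scaled by transcript length as well as by reads, allows levels of different genes to be set side by side. The authors' Cuffdiff values, 1 per genotype and without a spread, were 2.85 FPKM in mutants and 1.15 FPKM in WT for *esm1*. They were 1.46 FPKM in mutants and 0.541 FPKM in WT for *angpt2a*, and 1.09 FPKM in mutants and 0.440 FPKM in WT for *aplnra*. PGF (1 of 2) had 1.58 FPKM in mutants and 0.460 FPKM in WT. Per length, *esm1* was thus the highest of the 4 in both genotypes and *aplnra* the lowest. The placental growth factor transcript, with the fewest reads, had an FPKM above that of *angpt2a* in mutants and below it in WT. Without replicate values, no neighbours in this order can be said to differ. The authors' DESeq means, counts divided by size factors, were 93.9 in mutants and 42.3 in WT for *esm1* and 50.7 in mutants and 19.0 in WT for *angpt2a*.

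The read counts and the FPKM values come from different counting programs, and their quotient, CPM per FPKM, grows with transcript length. It also depends on which reads each program counts, so differences between genes are not read as differences in length. The quotient was 2.96 in mutants and 2.97 in WT for *angpt2a* and 1.82 in mutants and 1.84 in WT for *aplnra*. For *esm1* it was 2.81 in mutants and 3.12 in WT, and for PGF (1 of 2) it was 0.724 in mutants and 0.649 in WT. On the log2 scale the genotypes differed in this quotient by -0.15 for *esm1* and 0.16 for PGF (1 of 2), and by under 0.02 in size for the other two. The median size of this difference was 0.056 over the 144 Cuffdiff transcripts that could be compared. *esm1* and PGF (1 of 2) therefore had somewhat different ratios between genotypes in the 2 counts, in opposite directions.

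By raw reads the 4 transcripts stood in the middle and lower part of the detected transcripts. A mutant sample had reads on 32028 to 32835 transcripts, and a WT sample on 31603 to 32513. *esm1* was at rank 10676 to 11528 in mutants and 14426 to 15059 in WT, with 63.8% to 67.4% of detected transcripts below it in mutants and 52.2% to 55.4% in WT. *angpt2a* was at rank 13126 to 14937 in mutants and 17560 to 18465 in WT, with 53.1% to 58.8% below it in mutants and 41.8% to 44.6% in WT. The places of these 2 genes did not overlap between genotypes. Nor did those of PGF (1 of 2), at rank 18660 to 20905 in mutants and 22571 to 28212 in WT. *aplnra* overlapped by rank, at 16470 to 18465 in mutants and 18152 to 23982 in WT, but not by percentage. How many of all transcripts changed place without overlap was not counted, so nothing is read from this. By CPM, all mutants were above all WT samples for 16.8% of tested transcripts.

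*aplnra*, the Apelin receptor, was above 43.1% to 48.1% of detected transcripts in mutants and above 23.6% to 41.8% in WT. In WT replicate 3 *aplnra* and *angpt2a* both had 16 reads and shared rank 18152. PGF (1 of 2) was above 35.3% to 41.1% of detected transcripts in mutants and above 0% to 28.6% in WT. The lowest value was that of WT replicate 3, where its single read tied it with all other transcripts of 1 read. These places are by reads and not per length. Ranked instead among the transcripts that passed the filter on low counts, PGF (1 of 2) had at most 10.3% of them below it in any mutant and at most 1.06% in any WT sample.

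**Figure D3:**
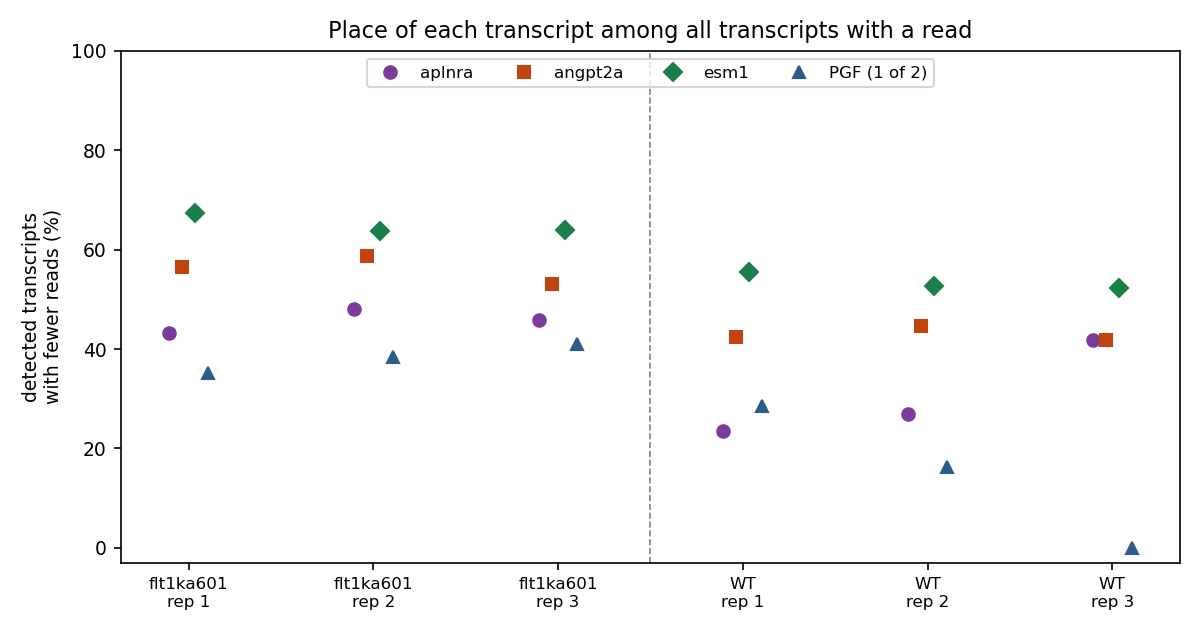
Share of detected transcripts with fewer reads (vertical axis, percent) for the 4 transcripts in each flt1ka601 and WT sample. *esm1* has the highest place in every sample, from 52.2% to 67.4%, and PGF (1 of 2) reaches 0% in WT replicate 3.

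The 4 genes shared the direction of the difference between genotypes, which their choice with earlier results known had nearly set in advance. The samples within a genotype were not ordered alike, but some of these orders rest on differences within counting error. For *esm1*, WT replicates 2 and 3 were at 3.42 and 3.41 CPM. Among the mutants, flt1ka601 replicate 2 was highest for *aplnra* and *angpt2a*, replicate 1 for *esm1* and replicate 3 for PGF (1 of 2). Among WT samples, replicate 3 was highest for *aplnra*, replicate 2 for *angpt2a*, and replicate 1 for *esm1* and PGF (1 of 2). WT replicate 3, in which *aplnra* was high, was the middle WT sample for *angpt2a* and the lowest for *esm1* and for PGF (1 of 2).

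For each pair of genes, the 6 comparisons of samples within a genotype can be counted by whether both genes put the samples in the same order. The count was 4 of 6 for *aplnra* with *angpt2a*, 3 of 6 for *angpt2a* with *esm1* and for *esm1* with PGF (1 of 2), 2 of 6 for PGF (1 of 2) with *aplnra* or *angpt2a*, and 1 of 6 for *aplnra* with *esm1*. With 6 comparisons per pair and some orders within counting error, these counts show neither agreement nor disagreement between the genes. No correlation across samples is given, since the 6 samples belong to 2 genotypes with 3 samples each.

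**Figure D4:**
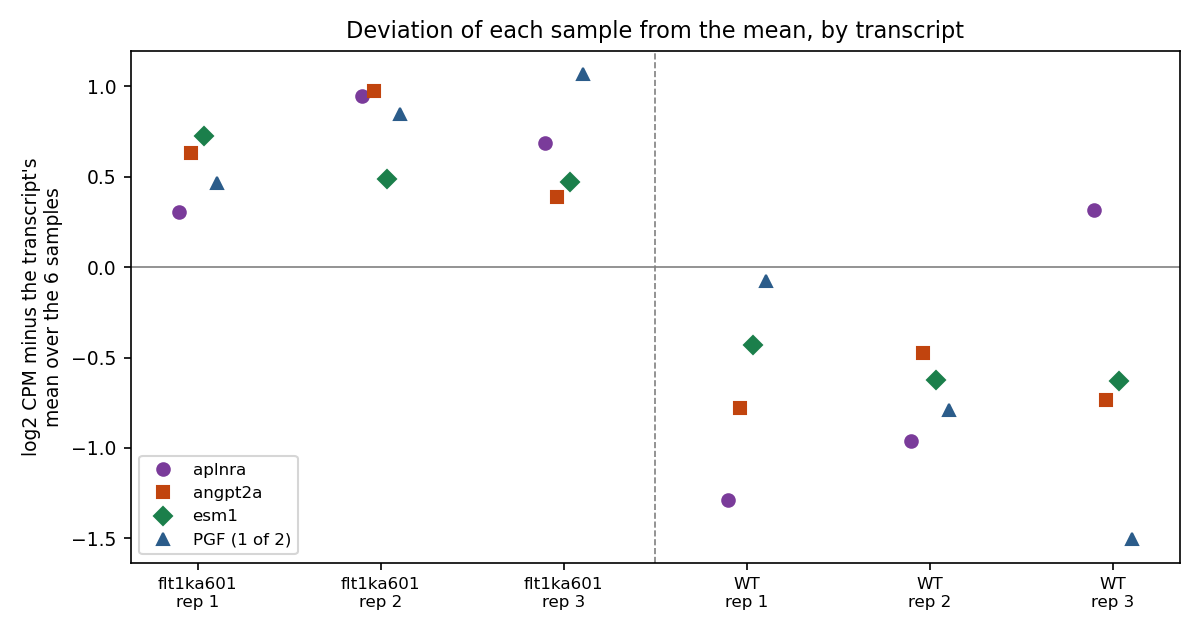
Log2 CPM of each transcript minus its mean over the 6 samples (vertical axis) in the flt1ka601 and WT samples. edgeR adds a small count before taking the log, which shrinks differences where reads are few. The values are therefore not the logs of the CPM given above. All mutants lie above 0 and all WT samples below 0 except WT replicate 3 of *aplnra*, at 0.32.

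Transcripts with the most similar course over the 6 samples were taken from the 322 other named transcripts averaging 20 reads or more, by the root mean square difference of the centred log2 CPM values. Before the log edgeR adds a small count, which damps the differences of transcripts with few reads, as *aplnra* and PGF (1 of 2) are. These names, too, exist only for transcripts the authors listed as changed. The distance includes the difference between genotypes, so a transcript changed by a similar ratio is near for that reason alone. Named transcripts lower in mutants lie far off and raise the median. A small distance therefore does not show a shared order of samples within a genotype. Nearest to *esm1* were *dtl*, a part of a ubiquitin ligase that acts in S phase, HIST1H4A (2 of 3), a histone H4 gene, and *fbp1b*, an enzyme of gluconeogenesis, at 0.053, 0.062 and 0.073 log2 units, where the median of all 322 was 0.73. *dtl* was at 10.7 ± 1.11 CPM in mutants and 4.89 ± 0.387 CPM in WT. Nearest to *angpt2a* were CABZ01048392.1 and the centromere protein genes *cenpf* and *cenpn*, at 0.12, 0.15 and 0.16. *cenpf* was at 7.65 ± 1.11 CPM in mutants and 2.42 ± 0.322 CPM in WT (SD, n = 3 each).

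Place for place in each list of 3, the nearest courses were farther off for the 2 genes with few reads. For *aplnra* they were those of *slc12a10.1*, a cation-chloride cotransporter gene, at 0.15, and of si:dkey-118k5.3 and si:dkey-103i16.2, which RefSeq names *endouc*, at 0.24 and 0.26. For PGF (1 of 2) they were those of si:busm1-180g5.7, si:dkey-261m9.13 and zgc:113265, at 0.24, 0.27 and 0.29. The WT samples of *slc12a10.1* also spread widely, with 3.21 ± 0.534 CPM in mutants and 1.27 ± 0.785 CPM in WT.

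Other genes of the same pathways could be followed only where the deposited tables name them. Of 4 zebrafish symbols listed for apelin signalling, 9 for angiopoietin-Tie signalling and 18 for the Vegf ligands and their receptors, 1 each was named, namely *aplnra*, *angpt2a* and PGF (1 of 2). Of 21 listed tip-stalk and sprouting symbols, *angpt2a* and *esm1* were named. Of 28 pan-endothelial symbols 1 was named, si:dkey-208k22.3, which RefSeq calls *plvapa*, the gene of a diaphragm protein of fenestrated endothelium. It was higher in the mutants, with a log2 fold change of 1.11 (standard error 0.14, edgeR adjusted p = 0.0015). Of 11 venous and lymphatic symbols 1 was named, LYVE1 (2 of 2), RefSeq's *lyve1a*, a hyaluronan receptor gene, with a log2 fold change of 1.15 (standard error 0.21, edgeR adjusted p = 0.0081). The ligands *apln* and *apela*, the receptors *tek* and *kdrl* and *flt1* itself were not analysed here, since no row of the tables is named for them.

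Transcripts of other cell types moved with genotype in the same samples. Here too a transcript is named only where the authors listed it as changed between the genotypes, so the counts of calls among named transcripts were nearly set by that choice, and the unnamed symbols were not analysed here. Of 13 listed erythroid symbols 6 were named, all 6 were called higher in mutants, as were 5.44% of all tested transcripts, and their summed level was 781 to 1136 CPM in mutants and 282 to 325 CPM in WT. Of 17 exocrine pancreas symbols 6 were named, of which 4 could be tested and 2 were called lower, as were 4.31% of all tested transcripts, 1 had no read in any sample, and their summed level was 31.6 to 109 CPM in mutants and 146 to 257 CPM in WT. The named pan-endothelial transcript was at 23.4 to 25.9 CPM in mutants and 9.15 to 14.0 CPM in WT. No symbol of the neuron, mural cell or macrophage and neutrophil lists was named. In images of the trunk at 4 dpf, the paper counted more endothelial cells in mutant vessels than in WT. The part of cell numbers in the levels of *aplnra*, *angpt2a*, *esm1* and PGF (1 of 2) was not tested.

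With each sample left out in turn, *angpt2a* and *esm1* were called in all 6 fits. PGF (1 of 2) and *aplnra* were called in 1 of 6 each. The lowest log2 fold change of *aplnra*, 0.95, was that without WT replicate 1, the sample in which its level was lowest, at 0.384 CPM. With DESeq2's Wald test, which called 4.29% of tested transcripts higher, *angpt2a* and *esm1* were called, *aplnra* had an adjusted p of 0.11, and PGF (1 of 2) was given none because of its low counts.

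**Figure D5:**
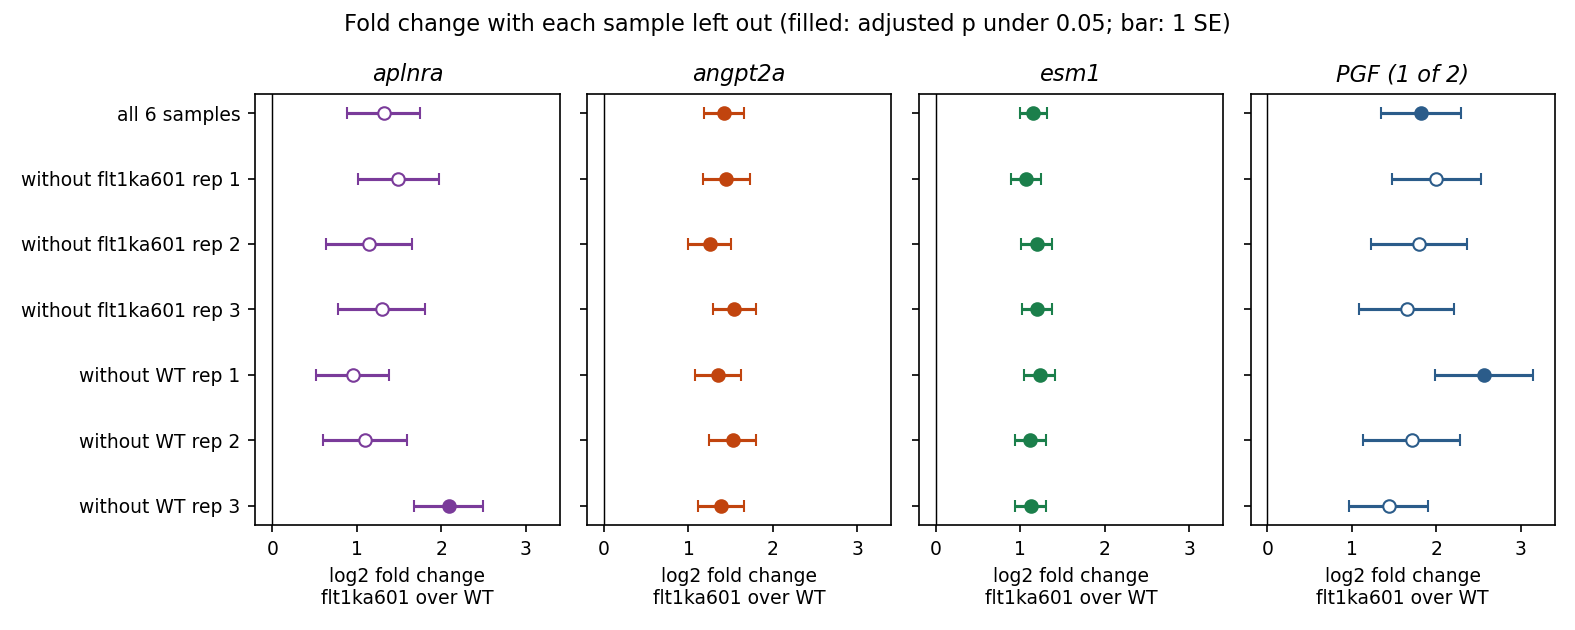
Log2 fold change of flt1ka601 over WT (horizontal axis) with 1 standard error, for all 6 samples and with each sample left out, filled where the edgeR adjusted p was under 0.05. *angpt2a* stays between 1.25 and 1.54 and *esm1* between 1.06 and 1.23, while *aplnra* runs from 0.95 to 2.09 and PGF (1 of 2) from 1.44 to 2.56.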

How the data were processed

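RNA-seq counts of 3 flt1ka601 and 3 WT samples were grouped by the genotype and replicate number in the labels. The authors' deposited counts are raw HTSeq counts per Ensembl transcript. The submitters' processing notes name TopHat2 2.0.10, Bowtie2 2.1.0, Cufflinks 2.1.1 and HTSeq 0.6.1 with the builds Zv9 and danRer7, whereas the paper's methods name GRCz10, so no coordinates are given. The library kit does not mark strand. The authors' deposited DESeq table gives a signal per genotype (mean counts divided by size factors), and their deposited Cuffdiff table gives an FPKM per genotype. The authors' fold changes and p-values were not used.

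Transcripts were kept by filterByExpr (the equivalent of 10 reads in 3 samples, with a total of 15) and tested with edgeR 4.0.16 in R 4.3.3 (TMM, quasi-likelihood test on genotype, Benjamini-Hochberg adjustment over all 21029). Standard errors and 95% intervals were derived from the F statistic and are approximate. Poisson and permutation values used scipy 1.17.1. Alternatives were other scalings, DESeq2 1.42.0, other filters, a replicate block and each sample left out. Samples of a genotype were distinct libraries by their counts. The chi-square per degree of freedom was 1.90 to 5.40 between mutant samples and 9.46 to 23.7 between WT samples. Between samples of different genotype it was 10.1 to 36.3, so over all transcripts the WT samples differed more among themselves than the mutants did.

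The 4 genes, the pathway and marker lists and the rule for similar courses were chosen with earlier results of these data known. Named were the 4 genes, transcripts on those lists, and the 3 nearest courses per gene. Of 424 named transcripts, 244 matched a RefSeq symbol.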

Additional observations from a re-analysis of the deposited data

How the results depend on the processing

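All 4 transcripts had a positive log2 fold change in every alternative that gave a value, and *angpt2a* and *esm1* were called in all 14 of theirs. The direction was nearly set in advance, since the 4 were chosen with earlier results of these data known. *aplnra*, not called in the fit reported, was called when samples were scaled by total counts (log2 fold change 1.44, adjusted p = 0.049) and with no filter beyond 1 read (1.31, adjusted p = 0.031), and with 1 sample left out its log2 fold change ran from 0.95 to 2.09 (adjusted p = 0.0055 to 0.24, edgeR). Scaling by total counts moved the median log2 fold change of all tested transcripts to 0.12, from -0.0051 with TMM, and gave 1828 higher and 373 lower calls over all transcripts, 83.1% of them higher, beside 1145 and 907 with TMM, 55.8% of them higher. Scaling by all uniquely placed reads gave 1287 and 558, 69.8% of them higher. With 1 sample left out the calls over all transcripts ran from 422 higher and 295 lower (without flt1ka601 replicate 2) to 1492 and 1297 (without WT replicate 3). PGF (1 of 2) ran from 1.44 to 2.56 with a sample left out (adjusted p = 0.030 to 0.13, edgeR). With the replicate number as a block its log2 fold change was 1.81 with an adjusted p of 0.058, and the block changed no other call of the 4 and gave 1270 higher and 1082 lower calls among all transcripts. Each sample's deviations from its genotype mean correlated best with those of the sample of its own number, a hint from the data and not from the design. These correlations were only 0.022 to 0.080, so the samples were treated as sharing a number without being paired. The cause of these changes was not tested. With at least 10 reads asked of every sample, *aplnra* and PGF (1 of 2) could not be fitted.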

Other observations

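A transcript can have an FPKM in the authors' Cuffdiff table and almost no HTSeq reads. Of its 158 transcripts, 3 had under 10 reads over the 6 samples. The pancreatic protease transcript si:ch73-103b2.3, which RefSeq names *prss59.2*, was listed at 201 FPKM in mutants and 428 FPKM in WT and had 0 reads in the count table. *ela3l* was listed at 14.8 FPKM in mutants and 34.1 FPKM in WT with 1 read, and ZMAT1 was listed at 0.645 FPKM in mutants and 1.2999 FPKM in WT with 0 reads. These transcripts were singled out after their values were seen. None of *aplnra*, *angpt2a*, *esm1* and PGF (1 of 2) was of this kind, with 98, 213, 421 and 52 reads over the 6 samples in that order.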
